A study of Saccharomyces cerevisiae with 15 samples.

Results

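The seripauperins (PAU genes) and the TIR and DAN genes encode small proteins of the yeast cell wall, and their transcripts were followed across 5 nitrogen sources. The members were chosen by gene symbol: of 9275 probe sets that were not controls, 28 name, in the platform annotation, only genes called PAU, TIR or DAN followed by a number. They cover 30 of the 5923 genes named on the array, 24 PAU genes and 6 TIR or DAN genes. The symbols alone set the membership and no signal entered it, but the family was put forward with the signals of these same arrays known, so the values and counts below describe it and are not independent support for its pattern. The arrays are Affymetrix YG_S98 chips hybridised with RNA of Saccharomyces cerevisiae CEN.PK113-7D, a prototrophic haploid laboratory strain of mating type a. The cells grew in aerobic chemostats, continuous cultures kept at pH 5.0 and 30 °C and diluted at 0.10 per hour, in which glucose (7.5 g/l in the feed) limited growth and 1 amino acid supplied the nitrogen. The 5 groups of 3 arrays differ in that amino acid: proline at 8.8 g/l, leucine at 10.0 g/l, phenylalanine at 5.0 g/l, methionine at 11.3 g/l and asparagine at 5.0 g/l. Asparagine, the source classed as preferred, is the baseline for the other 4. All 5 groups share the strain, 6.6 g/l K2SO4, a dissolved oxygen tension above 50% of air saturation and sampling after 10 to 14 volume changes.

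In Saccharomyces cerevisiae the TIR and DAN genes encode serine- and threonine-rich mannoproteins that are anchored to the wall through glycosylphosphatidylinositol, and the seripauperins are short relatives of them that lack most of the repeated part. The family is known from cells without oxygen: in air the haem-dependent repressors Rox1 and Mot3 hold many of these genes down, and when oxygen, haem or sterols run low the sterol-sensing activator Upc2 switches them on. All cultures compared here were aerated.

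The family falls into probe sets of its own and of shared sequence. DAN1, DAN4, TIR1, TIR2, TIR3 and TIR4 each have a probe set that names 1 gene and carries no suffix for shared sequence. The other 22 probe sets are all for PAU genes and all carry such a suffix (f on 21, s on 1), because the PAU genes are close copies of each other. Of these 22, 10 name 1 PAU gene and 12 name 2 to 8, and 14 of the 24 PAU genes appear only in probe sets of several genes. A signal of the second kind is therefore a family signal that cannot be divided among its genes, and the 2 kinds are given apart. In the RefSeq gene table for R64, 13 of the 24 PAU genes are 363 bases long (range 129 to 495), against 756 to 3486 bases for the TIR and DAN genes.

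The signals are linear intensities. The trimmed mean of every array was 150.09 to 150.15, from which a common scaling of the arrays by the submitters was inferred, since none is stated. Array medians were 38.2 to 55.1. A probe set was tested when its signal was above the 25th percentile of the array (9.9 over all arrays) on at least 3 of 15 arrays, which 7459 of 9275 (80.4%) and 27 of the 28 members were. The member left out, which names PAU19, PAU21 and PAU22, was above that percentile on 0 arrays, with means of 2.73 to 5.40. DAN1 was above it on 6 arrays, those with proline and asparagine, so it was tested through the groups in which it is high, and the other 26 members were above it on all 15. Across the 5 groups, in the order proline, leucine, phenylalanine, methionine and asparagine, the 3' to 5' signal ratio of actin, a measure of RNA integrity, was 1.90 ± 0.427, 2.11 ± 0.285, 2.81 ± 0.697, 1.76 ± 0.103 and 2.77 ± 0.797 (SD, n = 3). Spiked hybridisation controls, added to each sample in set amounts, gave 139 ± 28.2, 226 ± 106, 450 ± 319, 173 ± 15.6 and 351 ± 58.2.

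Across the 5 sources the median PAU signal was highest with proline, intermediate with asparagine and low with leucine, phenylalanine and methionine. The DAN and TIR probe sets did not all share this order, as described below. The median signal of the 21 tested PAU probe sets was 333.6, 301.0 and 344.1 on the proline arrays, 55.8, 50.5 and 59.9 on the leucine arrays, 53.5, 61.0 and 60.8 on the phenylalanine arrays, 58.7, 65.2 and 63.2 on the methionine arrays and 159.3, 158.7 and 116.7 on the asparagine arrays. The proline arrays did not overlap the asparagine arrays in this median, and neither overlapped the other 9. By limma's moderated F test over the 5 sources, with Benjamini-Hochberg adjustment over all 7459 probe sets and a threshold of 0.05, 5 of the 6 DAN and TIR probe sets and 21 of the 21 PAU probe sets differed, against 52.2% of all probe sets tested. DAN1 passed the filter only on proline and asparagine arrays, so its call among the 5 describes it and is not support. The TIR2 call among the 5 was lost under several other settings, given below. In bulk RNA, fewer cells that express a gene and less of its RNA per cell cannot be told apart.

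DAN1, a wall mannoprotein made in cells without oxygen, had means below the 25th percentile of signal with 3 of the 5 sources. It read 93.7, 76.4 and 79.0 with proline, 6.2, 9.3 and 5.6 with leucine, 2.3, 9.9 and 0.4 with phenylalanine, 0.5, 4.9 and 2.8 with methionine and 51.9, 51.3 and 26.5 with asparagine. Every proline and asparagine array was above every array of the other 3 sources. Because DAN1 passed the filter only through those arrays, its lower calls with the other 3 sources describe it and are not support. DAN1 was at least 4.17-fold lower than with asparagine with leucine (log2 difference -2.59 ± 0.52 (SE), adjusted p = 0.0018), with phenylalanine (-3.53 ± 0.52, adjusted p = 0.00018) and with methionine (-3.78 ± 0.52, adjusted p = 5.1e-05), the fold being measured to that percentile. With proline it averaged 83.0 ± 9.33, against 43.2 ± 14.5 with asparagine (SD, n = 3), and although the 2 groups did not overlap the difference of 1.00 ± 0.52 missed the threshold (adjusted p = 0.23, 95% interval -0.10 to 2.11).

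TIR3, one of the wall mannoproteins required for growth without oxygen, separated the sources in another way. Its signals were 567.8, 565.6 and 440.1 with proline, 79.4, 142.4 and 113.8 with leucine, 124.1, 218.2 and 111.8 with phenylalanine, 110.3, 83.8 and 59.5 with methionine and 509.4, 567.1 and 425.6 with asparagine. The proline and asparagine arrays covered the same range, and none of the other 9 reached it. The difference between proline and asparagine was 0.07 ± 0.27 (SE), with an interval of -0.51 to 0.64 (adjusted p = 0.90), while TIR3 was 4.57-fold lower with leucine (adjusted p = 2.2e-05), 3.44-fold lower with phenylalanine (adjusted p = 0.00025) and 6.07-fold lower with methionine (adjusted p = 3e-06) than with asparagine.

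TIR4, a second mannoprotein required for growth without oxygen, followed the order of the PAU median. It read 295.3, 275.6 and 239.9 with proline, 46.1, 59.4 and 47.9 with leucine, 73.1, 90.1 and 40.1 with phenylalanine, 71.2, 94.2 and 72.2 with methionine and 143.9, 200.5 and 107.9 with asparagine. No array of another source lay within the range of the asparagine arrays. It was 1.84-fold higher with proline than with asparagine (log2 difference 0.88 ± 0.27, adjusted p = 0.039), a call that was lost without any 1 of 5 of the 6 arrays compared: adjusted p was 0.13, 0.10 and 0.058 without proline array 1, 2 or 3 and 0.096 and 0.19 without asparagine array 1 or 3. TIR4 fell 2.87-fold with leucine (adjusted p = 0.00056), 2.28-fold with phenylalanine (adjusted p = 0.0046) and 1.86-fold with methionine (adjusted p = 0.015). The methionine call was lost without asparagine array 2 (adjusted p = 0.073) or methionine array 1 (adjusted p = 0.052).

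TIR1, the third mannoprotein required for growth without oxygen, also known as SRP1, spanned a narrower range. Its signals were 242.3, 224.2 and 202.0 with proline, 91.4, 114.6 and 94.5 with leucine, 115.6, 194.6 and 115.5 with phenylalanine, 111.8, 120.7 and 96.0 with methionine and 195.8, 154.3 and 154.0 with asparagine. The leucine and methionine arrays lay below the asparagine arrays, and phenylalanine array 2 lay among them. It was 1.68-fold lower with leucine (adjusted p = 0.010) and 1.53-fold lower with methionine (adjusted p = 0.019) than with asparagine. Neither difference passed without asparagine array 1 (adjusted p = 0.054 and 0.083), and the methionine one also failed without methionine array 3 (adjusted p = 0.077), with arrays centred on their medians (adjusted p = 0.088) and with the actin ratio as a covariate (-0.36, adjusted p = 0.25). With phenylalanine the log2 difference was -0.28 ± 0.19 (adjusted p = 0.30) with all arrays and -0.53 (adjusted p = 0.019) without phenylalanine array 2. With proline it was 0.41 ± 0.19, and missed the threshold (adjusted p = 0.17), except with limma's array weights (0.51, adjusted p = 0.014).

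TIR2, a cold-inducible relative of TIR1 whose gene lies next to TIR4, did not share the order of the PAU median. It read 112.8, 136.1 and 100.0 with proline, 122.9, 154.9 and 145.0 with leucine, 170.4, 267.9 and 142.1 with phenylalanine, 109.3, 121.3 and 114.6 with methionine and 132.7, 163.9 and 174.3 with asparagine. Its proline mean (116.3 ± 18.3) was near the lowest of the 5 and its phenylalanine mean (193.5 ± 66.0) the highest, with phenylalanine array 2 the highest single value. TIR2 passed the F test (adjusted p = 0.0318). That call was lost with no filter (adjusted p = 0.058) and with the actin ratio (0.16) or the ribosomal RNA signal (0.064) as a covariate. It was also lost without asparagine array 3, proline array 1 or 3 or any 1 methionine array (adjusted p = 0.051 to 0.063). TIR2 passed no comparison with asparagine. There the log2 differences were -0.44 with proline (adjusted p = 0.17), -0.15 with leucine (adjusted p = 0.65), 0.26 with phenylalanine (adjusted p = 0.37) and -0.44 with methionine (adjusted p = 0.094). Other settings called some of these. With arrays centred on their medians the phenylalanine difference was 0.57 and passed (adjusted p = 0.025). TIR2 was lower with proline with array weights (-0.49, adjusted p = 0.020) or the hybridisation signal as a covariate (-0.82, adjusted p = 0.044), and lower with methionine under both (adjusted p = 0.012 and 0.013) and with only the methionine and asparagine arrays fitted (adjusted p = 0.026). TIR2 was 1.62-fold higher with phenylalanine than with proline (adjusted p = 0.023).

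DAN4, the longest gene of the family and the neighbour of DAN1, was the only DAN or TIR probe set that missed the F test (adjusted p = 0.189), which it passed with array weights (adjusted p = 0.013) and without phenylalanine array 3 (adjusted p = 0.028). Its signals were 188.6, 195.1 and 192.4 with proline, 139.4, 164.0 and 146.6 with leucine, 166.4, 201.4 and 84.3 with phenylalanine, 113.7, 154.1 and 118.7 with methionine and 143.6, 205.7 and 207.3 with asparagine. The asparagine arrays overlapped those of every other source. The intervals of the log2 differences from asparagine were -0.46 to 0.60 for proline, -0.82 to 0.24 for leucine, -0.90 to 0.16 for phenylalanine and -1.05 to 0.01 for methionine, so a 2-fold change was outside the intervals for proline, leucine and phenylalanine, and not for methionine. DAN4 was lower with methionine with array weights (-0.59, adjusted p = 0.0087), with the hybridisation signal as a covariate (-0.88, adjusted p = 0.014) and with only these 2 groups fitted (-0.52, adjusted p = 0.041).

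**Figure D1:**
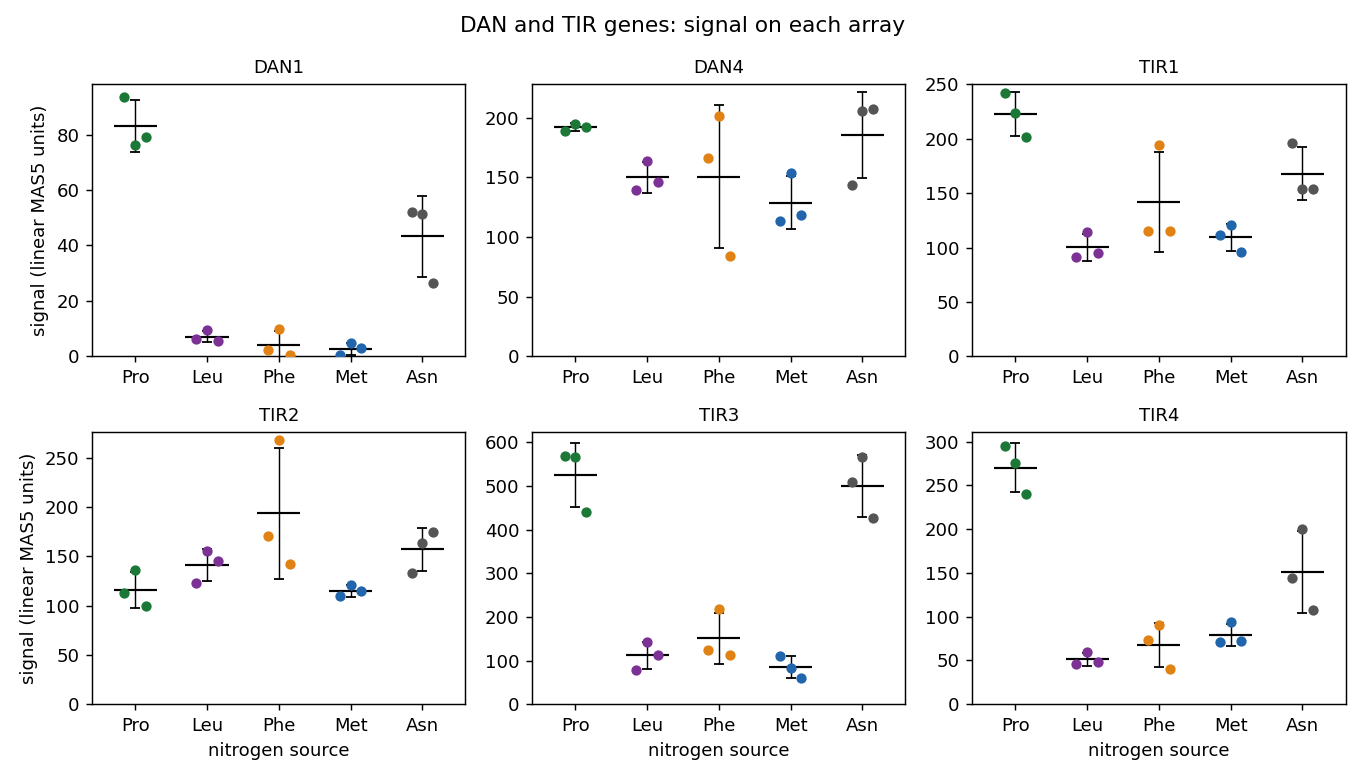
Signal in linear MAS5 units (vertical axes, each from 0) of DAN1, DAN4 and TIR1 to TIR4 by nitrogen source (Pro, Leu, Phe, Met, Asn). Points are arrays, the horizontal line is the mean of 3 and the bar the SD. DAN1, TIR3 and TIR4 are high with proline and asparagine and low with the other 3 sources, TIR1 shows a smaller step, and TIR2 and DAN4 do not show it.

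Among the PAU probe sets, the 8 that differed most from asparagine are described singly. Each carries the suffix f, so a gene name given with signals or folds stands for its probe set and not for that gene alone. PAU15, a seripauperin gene with 1 annotated gene between it and its chromosome end, read 310.9, 309.4 and 327.3 with proline, 19.0, 19.7 and 17.7 with leucine, 18.9, 28.5 and 14.1 with phenylalanine, 27.4, 38.6 and 26.8 with methionine and 157.0, 124.7 and 74.0 with asparagine. The proline arrays, the asparagine arrays and the remaining 9 did not overlap. PAU15 was 2.79-fold higher with proline (log2 difference 1.48 ± 0.27, adjusted p = 0.0027), 6.02-fold lower with leucine (-2.59 ± 0.27, adjusted p = 3.5e-06), 5.76-fold lower with phenylalanine (-2.53 ± 0.27, adjusted p = 7.1e-06) and 3.71-fold lower with methionine (-1.89 ± 0.27, adjusted p = 6.6e-05) than with asparagine.

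The probe set that names PAU2, an internal copy on chromosome V, and PAU9, near an end of chromosome II, read 909.7, 699.7 and 825.6 with proline, 58.2, 41.2 and 62.9 with leucine, 52.5, 61.0 and 60.8 with phenylalanine, 55.7, 59.5 and 58.3 with methionine and 449.1, 321.0 and 204.4 with asparagine. The 9 leucine, phenylalanine and methionine arrays lay within 41.2 to 62.9, and the lowest asparagine array was above 200. It was 2.61-fold higher with proline (adjusted p = 0.0013) and 5.80-fold, 5.33-fold and 5.34-fold lower with leucine, phenylalanine and methionine (adjusted p = 7.3e-07, 2.2e-06 and 1.1e-06).

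PAU3 and PAU19, which lie near ends of chromosomes III and XIII, are 375 bases long like PAU15. PAU3 read 291.6, 248.4 and 287.9 with proline, 19.4, 15.7 and 26.6 with leucine, 15.5, 32.2 and 11.2 with phenylalanine, 26.9, 37.6 and 37.5 with methionine and 127.6, 112.4 and 59.9 with asparagine. PAU19 read 326.1, 299.1 and 368.2 with proline, 21.9, 28.8 and 23.2 with leucine, 22.6, 39.0 and 22.4 with phenylalanine, 35.9, 37.7 and 44.7 with methionine and 132.4, 115.9 and 90.1 with asparagine. On both probe sets the proline arrays were highest, the asparagine arrays came next and the other 9 arrays stayed below 45, with no overlap. PAU3 was 2.90-fold higher with proline (adjusted p = 0.010, and 0.063 without asparagine array 3), and 4.73-fold, 5.36-fold and 2.83-fold lower with leucine, phenylalanine and methionine. For PAU19 the corresponding values were 2.96-fold higher (adjusted p = 0.00029) and 4.56-fold, 4.12-fold and 2.84-fold lower, and the largest adjusted p among the 6 lower calls of this pair was 0.0031.

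PAU7, the shortest seripauperin gene with a probe set that names it alone (168 bases), and PAU16, the outermost annotated protein-coding gene at its end of chromosome XI, separated the same 3 sets of arrays. PAU7 read 611.7, 539.9 and 677.2 with proline, 56.3, 53.3 and 59.9 with leucine, 61.7, 72.5 and 36.8 with phenylalanine, 51.4, 65.2 and 65.2 with methionine and 264.1, 304.4 and 183.2 with asparagine. PAU16 read 333.6, 330.0 and 438.7 with proline, 33.5, 32.3 and 37.8 with leucine, 42.9, 53.1 and 42.5 with phenylalanine, 63.1, 58.6 and 49.4 with methionine and 174.2, 169.3 and 120.6 with asparagine. Again the proline, asparagine and remaining arrays formed 3 ranges that did not overlap. PAU7 was 2.48-fold higher with proline and 4.34-fold, 4.47-fold and 4.07-fold lower with leucine, phenylalanine and methionine, and PAU16 was 2.39-fold higher and 4.43-fold, 3.32-fold and 2.69-fold lower in the same order, with adjusted p at most 0.002 in these 8 comparisons.

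Another 2 probe sets name the same 8 genes, PAU1, PAU8, PAU9, PAU10, PAU11, PAU12, PAU13 and PAU14. The first (11249_f_at) read 1061.6, 732.2 and 1052.7 with proline, 105.0, 115.0 and 93.6 with leucine, 79.2, 140.7 and 134.6 with phenylalanine, 134.2, 174.5 and 142.7 with methionine and 353.2, 292.1 and 177.6 with asparagine. The second (4280_f_at) read 1015.6, 687.9 and 844.4 with proline, 118.5, 130.8 and 102.6 with leucine, 110.1, 127.8 and 107.8 with phenylalanine, 116.6, 200.0 and 136.8 with methionine and 302.5, 296.0 and 174.3 with asparagine. The proline arrays again stood alone at the top, but methionine array 2 came close to asparagine array 3 on the first and passed it on the second. Set against asparagine, both had the largest rises of the PAU probe sets with proline, 3.55-fold (adjusted p = 0.00033) and 3.36-fold (adjusted p = 0.00018). They fell 2.53-fold and 2.14-fold with leucine and 2.30-fold and 2.18-fold with phenylalanine. With methionine they were 1.76-fold (adjusted p = 0.018) and 1.70-fold lower (adjusted p = 0.015), and both calls were lost without any 1 of asparagine arrays 1 and 2 and methionine arrays 1 and 3 (adjusted p = 0.052 to 0.094), and with arrays centred on their medians (adjusted p = 0.082 and 0.067). They were also lost with the actin ratio as a covariate (-0.38 and -0.64, adjusted p = 0.33 and 0.12) or the hybridisation signal (-0.69 and -0.73, adjusted p = 0.095 and 0.057).

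The remaining 13 tested PAU probe sets had proline means of 84.2 to 457 and asparagine means of 47.7 to 204. A probe set for PAU6, PAU14, PAU20, PAU1 and PAU18 (10412_f_at), singled out after its values were seen, departed from this order. It read 175.7, 126.3 and 155.2 with proline, 42.2, 53.1 and 48.5 with leucine, 59.1, 58.6 and 60.2 with phenylalanine, 58.7, 74.9 and 59.7 with methionine and 58.4, 45.7 and 39.0 with asparagine. It was 3.21-fold higher with proline than with asparagine (adjusted p = 1.5e-05), while its phenylalanine and methionine arrays lay just above the asparagine arrays and its leucine arrays among them. With leucine, phenylalanine and methionine the log2 differences were 0.02, 0.33 and 0.45 (adjusted p = 0.95, 0.18 and 0.055). Without asparagine array 1 the methionine difference was 0.60 and passed (adjusted p = 0.021), as it did with array weights (adjusted p = 0.019). A second probe set of the same 5 genes (8786_f_at) had log2 differences of 1.22 with proline (adjusted p = 0.00047), -0.26 with leucine (adjusted p = 0.32), -0.07 with phenylalanine (adjusted p = 0.80) and -0.11 with methionine (adjusted p = 0.65). The third probe set that names PAU6 (with PAU18 and PAU20) had 0.75, -0.67, -0.61 and -0.24 in the same order, with the methionine difference not called (adjusted p = 0.39).

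**Figure D2:**
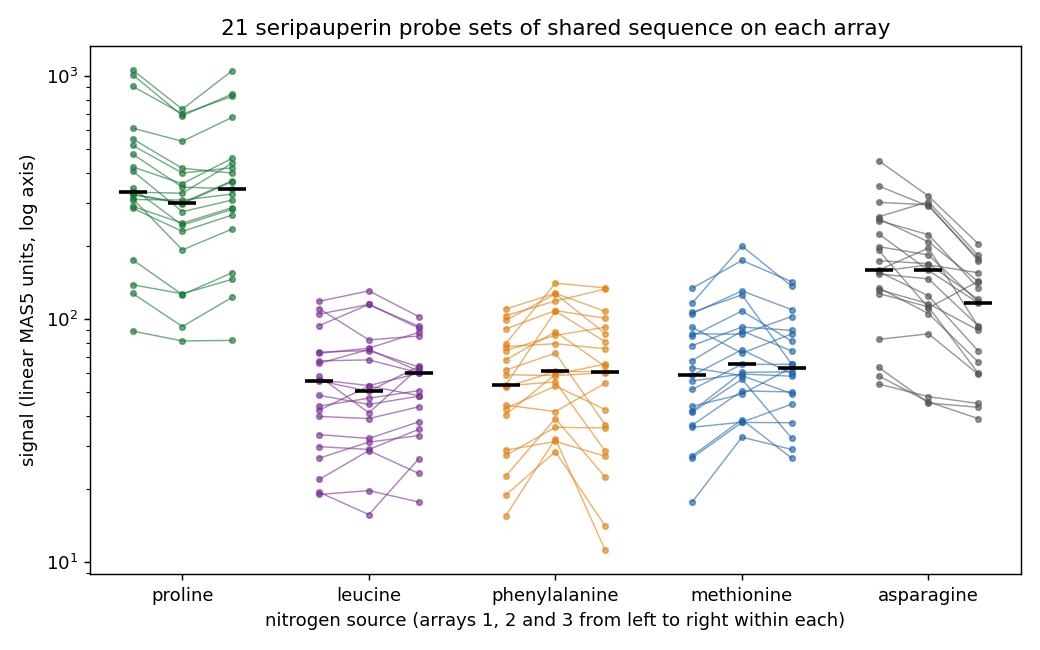
Signal of the 21 tested PAU probe sets of shared sequence on each array (linear MAS5 units, log axis), by nitrogen source with arrays 1 to 3 from left to right. Each thin line is 1 probe set, and the thick bars are the array medians, 301.0 to 344.1 with proline, 50.5 to 65.2 with leucine, phenylalanine and methionine and 116.7 to 159.3 with asparagine.

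With proline against asparagine, 21 of 21 PAU probe sets were higher and 1 of the 6 DAN and TIR probe sets (TIR4) was, against 4.6% of all probe sets tested. None was lower, against 8.7% of all. The PAU rises were 1.69-fold to 3.55-fold, with a median log2 difference of 1.31 where the median of all probe sets tested was -0.08. Of the 6 DAN and TIR probe sets, 5 had positive differences (median 0.24, range -0.44 to 1.00). The hybridisation controls moved with this comparison: their signal was 120 to 172 on the proline arrays and 293 to 410 on the asparagine arrays. With that signal as a covariate, 13 of the 21 PAU probe sets passed. Among the calls lost, the difference was 1.21 for PAU15 (adjusted p = 0.051) and 0.89 for PAU7 (adjusted p = 0.053), against 1.48 and 1.31 without the covariate. It was 0.79 for PAU3 (adjusted p = 0.19) and 0.44 for TIR4 (adjusted p = 0.40), against 1.53 and 0.88. With the actin ratio as a covariate, 19 of the 21 passed. The share of all probe sets called in these covariate fits is not given, so the losses cannot be called particular to the family.

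With leucine against asparagine, 4 of the 6 DAN and TIR probe sets (DAN1, TIR1, TIR3 and TIR4) and 19 of the 21 PAU probe sets were lower, against 11% of all tested, and none was higher, against 9.88%. DAN1 passed the filter only on proline and asparagine arrays, which favoured its lower calls here and with phenylalanine and methionine. The PAU differences had a median of -1.32 (range -2.59 to 0.02) and the DAN and TIR differences one of -1.13, where all probe sets tested had -0.03. The 2 PAU probe sets that did not pass were the pair for PAU6, PAU14, PAU20, PAU1 and PAU18.

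Phenylalanine gave 3 lower DAN and TIR probe sets (DAN1, TIR3 and TIR4) and 18 lower PAU probe sets, against 18.1% of all tested, and none was higher, against 7.56%. The median difference was -1.16 for the PAU probe sets (range -2.53 to 0.33) and -0.78 for the DAN and TIR probe sets, where all probe sets tested had -0.16. Phenylalanine array 2 was the highest of its group in 6 of 6 DAN and TIR probe sets and in 16 of 21 PAU probe sets. Its array median was also the highest of the group (47.6, against 44.3 and 38.2 on arrays 1 and 3). The share of all probe sets highest on that array is not given.

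Methionine gave 4 lower DAN and TIR probe sets (DAN1, TIR1, TIR3 and TIR4) and 18 lower PAU probe sets, against 24.2% of all tested, and none was higher, against 14.4%. The median difference was -0.92 for the PAU probe sets (range -2.42 to 0.45) and -0.76 for the DAN and TIR probe sets, where all probe sets tested had -0.09. RNA quality and hybridisation moved with this comparison: the actin ratio was 1.65 to 1.86 on the methionine arrays and 2.07 to 3.64 on the asparagine arrays, and the hybridisation controls gave 163 to 191 and 293 to 410. With the actin ratio as a covariate 11 PAU probe sets were lower and 1 was higher with methionine (10412_f_at, adjusted p = 0.036), and 3 DAN and TIR probe sets were lower. With the hybridisation signal as a covariate 13 PAU and 6 DAN and TIR probe sets were lower. The share of all probe sets called in these covariate fits is not given, so the changes cannot be called particular to the family.

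These 4 comparisons share the 3 asparagine arrays. They depend on the scaling of the arrays as well: centring each array on its median turned the median of all probe sets to 0.15 with phenylalanine and 0.12 with methionine, left 13 PAU probe sets lower with each, and made the probe set 10412_f_at higher with both (adjusted p = 0.024 and 0.015), as quantile normalization also did (adjusted p = 0.031 and 0.015). Over all probe sets the calls with phenylalanine then changed from 564 higher and 1347 lower to 1347 higher and 509 lower, and with methionine from 1072 and 1804 to 1749 and 1145.

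**Figure D3:**
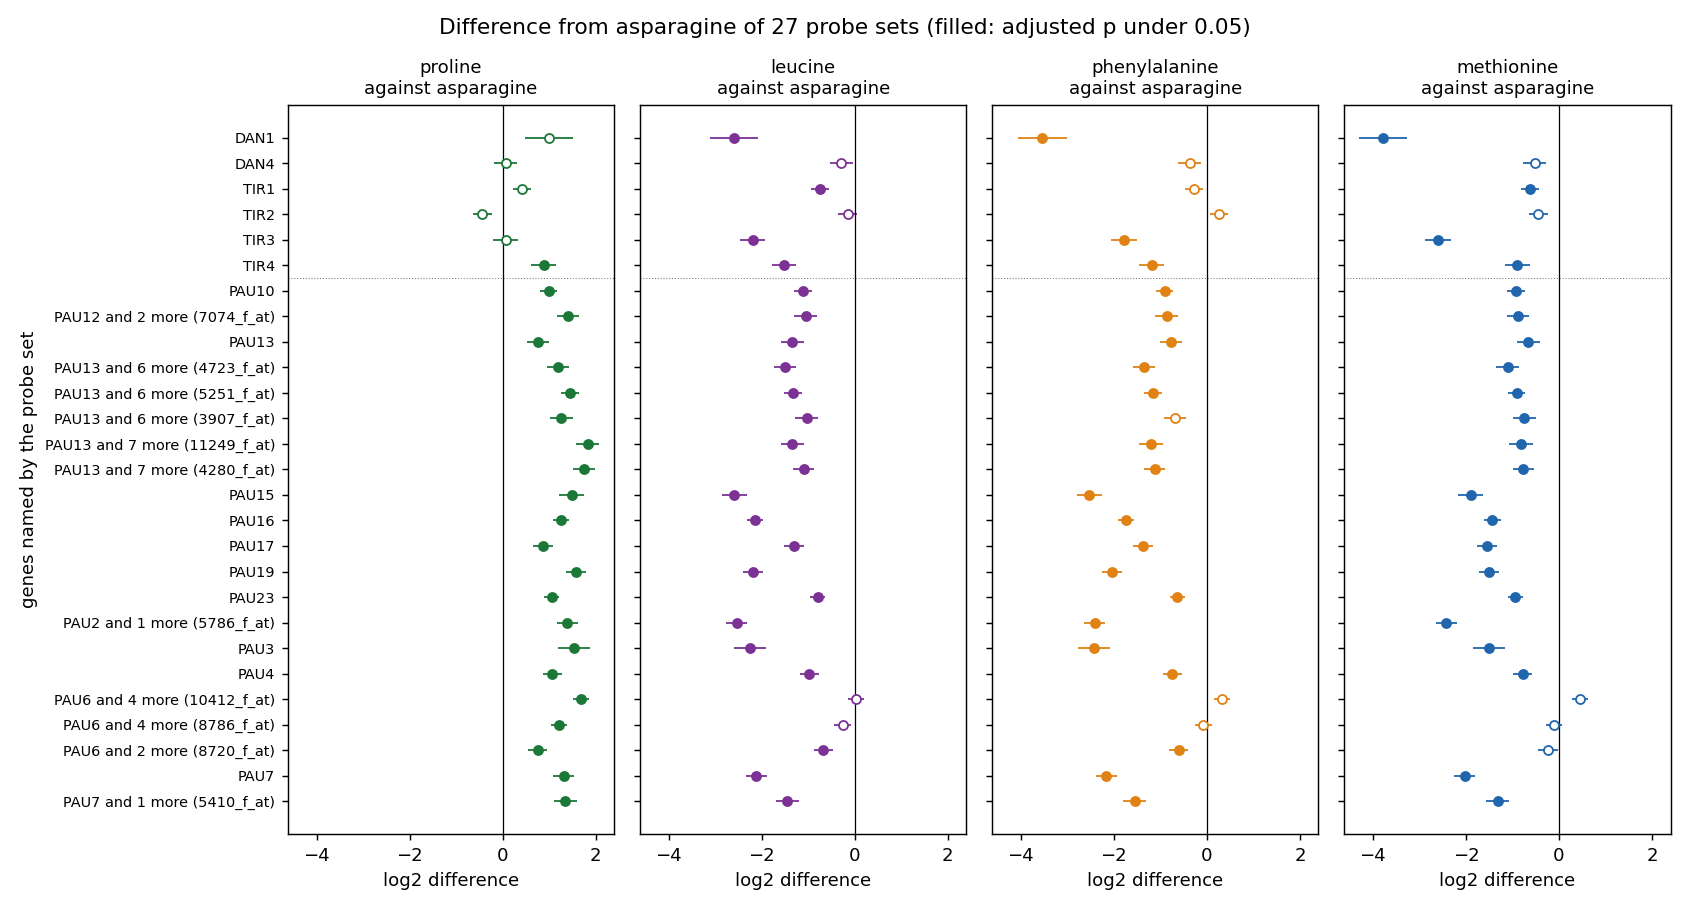
Log2 difference of each tested probe set of the family from asparagine (horizontal axis), with 1 panel per nitrogen source. Points are limma estimates from 3 arrays a group, bars the SE, and filled points have an adjusted p under 0.05. The 21 PAU probe sets lie at 0.75 to 1.83 with proline, and the 3 probe sets that name PAU6 lie nearest 0 with the other sources.

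The asparagine arrays themselves differed in this family. Asparagine array 3 was the lowest of its group in 20 of 21 PAU probe sets and 4 of 6 DAN and TIR probe sets, and array 1 was the highest in 17 of the 21. The shares of all probe sets with these orders are not given. The median coefficient of variation over the 21 was 27.3% with asparagine, against 13.8% for all probe sets tested there. In the other groups it was 14.4% (proline), 10.6% (leucine), 14.5% (phenylalanine) and 14.6% (methionine). For all probe sets tested it was 11.8%, 13%, 20.7% and 11.1% in the same order. Without asparagine array 3, 17 of the 21 PAU probe sets passed as higher with proline. The share of all probe sets called without that array is not given.

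The 3 low sources were also set against proline, comparisons that were added after seeing the data. In each of these 3 comparisons (leucine, phenylalanine and methionine in turn) all 21 PAU probe sets were lower than with proline, against 8.27%, 12.6% and 11.9% of all tested, and 4 of 6 DAN and TIR probe sets (DAN1, TIR1, TIR3 and TIR4) were lower with each. The PAU falls were 2.69-fold to 16.8-fold with leucine (median log2 difference -2.69), 2.44-fold to 16.1-fold with phenylalanine (-2.54) and 1.99-fold to 14.0-fold with methionine (-2.36). DAN1 was at least 8.35-fold lower with each of the 3 (adjusted p = 0.00012, 1.3e-05 and 5.6e-06). Its calls were again favoured by the filter, which it passed only on proline and asparagine arrays. TIR4 fell 5.30-fold with leucine, 4.20-fold with phenylalanine and 3.43-fold with methionine, and TIR1 fell 2.23-fold, 1.62-fold and 2.04-fold. Higher calls were limited to TIR2 with phenylalanine, against 8.14% of all tested with phenylalanine, 11.1% with leucine and 10.6% with methionine.

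Few members passed between leucine, phenylalanine and methionine. Between phenylalanine and leucine 0 of 27 members passed limma's test, against 12.8% of all tested, and at an unadjusted p under 0.05 the counts were 2 of 21 PAU and 1 of 6 DAN and TIR probe sets, against 27.9% of all. Between methionine and leucine 2 PAU probe sets were higher with methionine, against 18.8% of all tested in either direction: PAU16, with a log2 difference of 0.72 (adjusted p = 0.011), and PAU19, with 0.68 (adjusted p = 0.038). There 0 DAN and TIR probe sets passed. At an unadjusted p under 0.05 the counts were 7 of 21 PAU and 2 of 6 DAN and TIR probe sets, against 34.1% of all, and 19 of the 21 PAU differences were positive. Between methionine and phenylalanine TIR2 (-0.70, adjusted p = 0.022) and TIR3 (-0.82, adjusted p = 0.041) were lower with methionine, against 22.3% of all tested, and 0 PAU probe sets passed (3 at an unadjusted p under 0.05, against 36.4% of all). The median difference over the PAU probe sets was 0.14 for phenylalanine against leucine, 0.34 for methionine against leucine and 0.14 for methionine against phenylalanine. These small counts moved with single arrays: without any 1 of the arrays of the 3 sources, 1 to 4 PAU probe sets and 0 to 3 DAN and TIR probe sets passed in 1 or more of the 3 comparisons, the 4 being without phenylalanine array 2 and the 0 without methionine array 3.

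In order of group means, proline was first in 21 of 21 PAU probe sets and in 5 of 6 DAN and TIR probe sets, TIR2 being the exception. Asparagine was second in 20 of the 21, in the same 5 and in TIR2, where phenylalanine was first. The lowest mean of a PAU probe set was with leucine in 15, with phenylalanine in 3 and with methionine in 2 of 21. Among the DAN and TIR probe sets it was with methionine in 4 and with leucine in 2. How many of all probe sets tested took these orders is not given, so the orders cannot be called particular to the family. Among the 3 low sources, the methionine and leucine arrays did not overlap in 9 of the 21, against 45.1% of all tested. Of those 9, 2 passed limma's test, and no PAU probe set passed between the other pairs.

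The 10 PAU probe sets that name 1 gene all carry the suffix f, so their folds are family signals and cannot be assigned to the gene named. Those that name the 3 genes of 363 bases (PAU4, PAU10 and PAU13) were 1.97-fold to 2.53-fold lower with leucine than with asparagine, and those that name 6 genes of 372 to 375 bases (PAU3, PAU15, PAU16, PAU17, PAU19 and PAU23) were 1.74-fold to 6.02-fold lower. Against proline the folds with leucine were 4.13 to 4.29 for the first 3 and 3.61 to 16.8 for the other 6. The rises with proline over asparagine were 1.70-fold to 2.10-fold for the first 3 and 1.82-fold to 2.96-fold for the other 6. PAU7, of 168 bases, was 4.34-fold lower with leucine than with asparagine and 10.8-fold lower than with proline, and the probe set that names PAU2 and PAU9 was 5.80-fold and 15.2-fold lower. Within the second set PAU23 had the smallest fall with leucine: it averaged 333.2 ± 35.8 with proline, 92.7 ± 15.6 with leucine and 160.0 ± 6.5 with asparagine.

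By position, 19 of the 24 PAU genes have fewer than 10 annotated protein-coding genes between them and the nearer chromosome end, compared with 0 of the 6 TIR and DAN genes and 320 of all 6002 protein-coding genes (5.33%). The 5 others are PAU2, PAU5, PAU7, PAU17 and PAU23, with 14 to 99 genes. DAN4 and DAN1, with 10 and 11 genes, lie just past this limit and nearer an end than PAU7 (14). The probe set that names PAU17, which lies between the chaperone genes HSP104 and SSA2 inside chromosome XII, was 1.82-fold higher with proline and 2.49-fold lower with leucine than with asparagine, and had its lowest mean with methionine. It too is of shared sequence. DAN1 and DAN4 are neighbours on chromosome X and TIR4 and TIR2 neighbours on chromosome XV, and in each pair 1 gene (DAN1, TIR4) differed between the sources by large folds and the other (DAN4, TIR2) missed the threshold in the 4 comparisons with asparagine, apart from the other settings given above. AUS1, the sterol importer gene on the other side of TIR2, averaged 53.6 with proline, 55.3 with leucine, 42.3 with phenylalanine, 38.5 with methionine and 50.8 with asparagine (F test adjusted p = 0.069).

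The counts were different for other probe sets of shared sequence. Of the 482 other tested probe sets with the suffix f, 8 were higher and 19 lower with proline than with asparagine, 19 higher and 8 lower with leucine, 17 higher and 10 lower with phenylalanine and 119 higher and 40 lower with methionine. Of all probe sets tested, 4.6% were higher and 8.7% lower with proline, and 9.88% and 11% with leucine. These shares were 7.56% and 18.1% with phenylalanine and 14.4% and 24.2% with methionine. Among COS and AAD genes, 2 other families with many copies near chromosome ends, 10 of 12 were measured, and 1 was higher and 1 lower with proline, 3 and 1 with leucine, 1 and 2 with phenylalanine and 3 and 2 with methionine. With phenylalanine the 1 higher became 0 without any 1 asparagine array or phenylalanine array 2, without which 4 were lower. Without proline array 2, 2 were lower with proline. AAD10 averaged 208 with proline, 196 with leucine, 97.3 with phenylalanine, 109 with methionine and 214 with asparagine. AAD4, on a probe set with the shared-sequence suffix s, averaged 285, 236, 291, 264 and 435 in the same order. COS10, on a probe set with the suffix i, averaged 6.30, 19.4, 12.5, 42.8 and 12.2.

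Of 10 regulators of the response to oxygen, haem and sterols, 4 passed the F test over the 5 sources, against 52.2% of all probe sets tested. UPC2, the sterol-sensing activator, had the smallest F test adjusted p (2e-05). UPC2 read 32.7, 24.5 and 17.1 with proline, 4.6, 4.5 and 5.2 with leucine, 10.4, 6.1 and 6.1 with phenylalanine, 8.9, 11.7 and 11.6 with methionine and 26.0, 30.9 and 26.1 with asparagine. The proline and asparagine arrays were above those of the other 3 sources, with 4.5 to 32.7 as the whole range. UPC2 was at least 2.79-fold lower with leucine (adjusted p = 1.4e-05) and with phenylalanine (adjusted p = 0.00034) and 2.59-fold lower with methionine (adjusted p = 0.0023) than with asparagine, and its difference with proline was -0.21 ± 0.30 (adjusted p = 0.71). Against asparagine, the number of the 10 regulators that were lower was 1 for proline, 1 for leucine, 3 for phenylalanine and 1 for methionine, and none was higher. The shares of all probe sets in these comparisons are given above. The 3 with phenylalanine (UPC2, ECM22 and MGA2) became 1 without asparagine array 1 or 3 or phenylalanine array 3, where ECM22 and MGA2 were lost (adjusted p = 0.055 to 0.16), and also 1 under quantile normalization and median centring. They became 4 without phenylalanine array 2 and 2 without asparagine array 2 or phenylalanine array 1, and the 1 with methionine became 2 without asparagine array 2. Under both scalings CYC8 was higher with phenylalanine (adjusted p = 0.041 and 0.016) and SUT1 with methionine (adjusted p = 0.0087 and 0.0078).

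ECM22, the paralogue of UPC2, averaged 178 with proline, 145 with leucine, 130 with phenylalanine, 135 with methionine and 167 with asparagine (F test adjusted p = 0.022). ROX1, the haem-induced repressor, averaged 28.7, 69.3, 58.1, 40.8 and 43.2 in the same order and missed the threshold (F test adjusted p = 0.07). Set against proline by limma's contrast, ROX1 was 2.48-fold higher with leucine (adjusted p = 0.026). With phenylalanine and methionine ROX1 was not called against proline (adjusted p = 0.098 and 0.35). MOT3, its co-repressor, averaged 12.4 to 19.9 (adjusted p = 0.25) and HAP1, the haem-responsive activator, measured on a probe set of shared sequence, 208 to 272 (adjusted p = 0.73). MGA2, which activates the fatty acid desaturase gene, averaged 22.2 with proline, 45.1 with leucine, 29.7 with phenylalanine, 35.7 with methionine and 51.3 with asparagine and was lower with proline (adjusted p = 0.0058), and SUT1, a sterol uptake regulator, averaged 22.9, 51.3, 31.3, 66.1 and 39.1 (F test adjusted p = 0.0049). SPT23, the paralogue of MGA2, and TUP1 and CYC8, which form a general co-repressor, missed the F test (adjusted p = 0.10, 0.24 and 0.062).

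Other genes known to be expressed without oxygen or haem did not share one pattern. Of 12 measured, 10 passed the F test, against 52.2% of all probe sets tested. The shares of all probe sets in the comparisons with asparagine are given above. Against asparagine 1 was higher and 0 lower with proline (HEM13, coproporphyrinogen oxidase, adjusted p = 0.046), 0 and 4 with leucine, 0 and 3 with phenylalanine and 1 and 3 with methionine. CYC7, the cytochrome c isoform of low oxygen, averaged 106 with proline, 27.5 with leucine, 52.5 with phenylalanine, 80.0 with methionine and 77.0 with asparagine, and was 2.81-fold lower with leucine (adjusted p = 2.9e-05) and 1.49-fold lower with phenylalanine (adjusted p = 0.037). FRD1, a fumarate reductase, averaged 216, 114, 147, 100 and 177, and was 1.56-fold lower with leucine (adjusted p = 0.0049) and 1.79-fold lower with methionine (adjusted p = 0.00041). ANB1, the hypoxic translation factor eIF5A, averaged 21.5, 13.5, 15.4, 25.8 and 24.5, and was 1.82-fold lower with leucine (adjusted p = 0.013) and 1.58-fold lower with phenylalanine (adjusted p = 0.047). Several of these calls rest on single arrays. The count lower with leucine was 2 without asparagine array 1 or 3 or leucine array 1, and the count lower with phenylalanine was 0 without asparagine array 1 or 3, 1 without phenylalanine array 1 or 3, and 0 under both scalings. No gene of this list was higher with proline without any 1 of the 3 asparagine arrays or proline arrays 1 and 3, and the 1 higher with methionine became 0 without asparagine array 1 or any 1 methionine array, and 2 without asparagine array 3. CYC7 with phenylalanine was lost without asparagine array 1 or 3 or phenylalanine array 1 (adjusted p = 0.10 to 0.15). ANB1 with leucine was lost without asparagine array 1 or 3 or leucine array 1 (adjusted p = 0.052 to 0.062), and ANB1 with phenylalanine without asparagine array 1 or 3 or phenylalanine array 1 or 3 (adjusted p = 0.083 to 0.16).

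Of 8 other GPI-anchored wall mannoproteins, 7 passed the F test, against 52.2% of all probe sets tested, and they took different orders. The shares of all probe sets in the comparisons with asparagine are given above. Against asparagine 1 was higher and 2 lower with proline, 0 and 5 with leucine, 1 and 2 with phenylalanine and 1 and 2 with methionine. The 2 lower with phenylalanine were CWP1 and SED1, and the SED1 call was lost without asparagine array 1 (adjusted p = 0.061) or phenylalanine array 1 or 3 (adjusted p = 0.063 and 0.057). The 2 lower with proline became 1 without asparagine array 1 or 3 or any 1 proline array, the 5 with leucine became 3 without leucine array 3, and the 2 with methionine became 4 without asparagine array 2. CWP1 averaged 190 with proline, 51.1 with leucine, 180 with phenylalanine, 101 with methionine and 313 with asparagine, so asparagine and not proline was the highest source, with leucine 6.08-fold lower (adjusted p = 5.6e-09). SPI1, a stress-induced wall protein, averaged 600, 128, 344, 520 and 299 in the same order, higher with proline (2.02-fold, adjusted p = 0.00022) and methionine (1.74-fold, adjusted p = 0.0003) and lower with leucine (2.32-fold, adjusted p = 7e-06). SED1, a main wall protein of stationary cells, averaged 2213, 1324, 1920, 1092 and 2624.

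**Figure D4:**
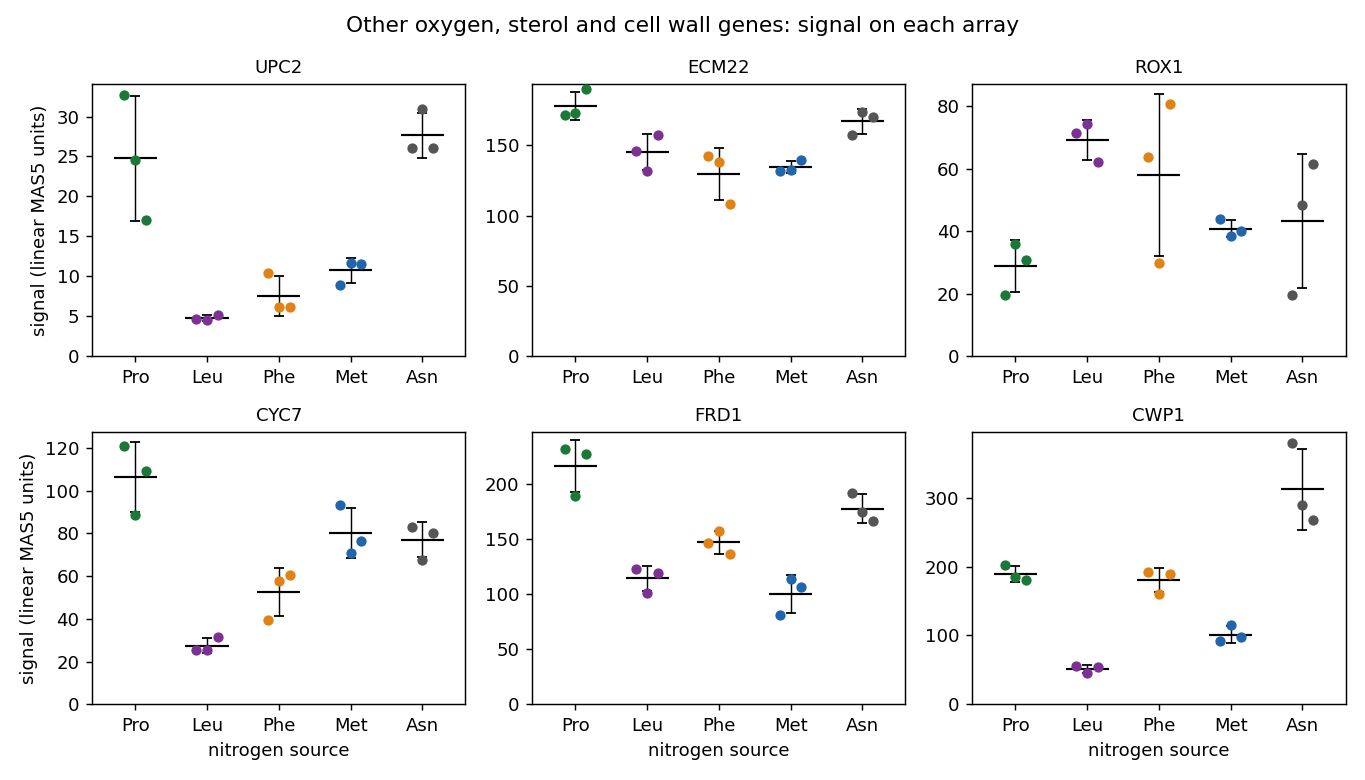
Signal in linear MAS5 units (vertical axes, each from 0) of UPC2, ECM22, ROX1, CYC7, FRD1 and CWP1 by nitrogen source (Pro, Leu, Phe, Met, Asn). Points are arrays, the horizontal line is the mean of 3 and the bar the SD. UPC2 separates proline and asparagine from the other 3 sources, ROX1 does not, and CWP1 is highest with asparagine.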

How the data were processed

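The authors deposited a linear intensity for every probe set of every array, made with MAS5 per the submitters' processing notes, with no version or scaling target stated there. The table held no detection flags and 310 values of 0. A scanner record of 1 phenylalanine array was not used. Genes were named from the platform annotation, and the 30 member genes matched RefSeq (R64), used for names, lengths and neighbours. Before the log2 step intensities under 2 (10th percentile) were set to 2, which understates changes of dim probe sets. The 15 arrays were fitted together, with a mean for each source, in limma 3.58.1 under R 4.3.3 (lmFit, eBayes with trend), with 2-sided tests and Benjamini-Hochberg adjustment over 7459 probe sets within each comparison; the fit was tested on simulated data. Folds are on the floored log2 scale, and a group mean at or below 9.9 gives "at least". The number of arrays limits the precision. The labels call the arrays of a source triplicates without saying that the cultures were separate, and p-values then reflect only how these arrays vary, which may be technical.

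Members and lists were chosen with earlier results of these data known. Named singly are every DAN and TIR probe set, the 8 PAU probe sets with the largest difference from asparagine, the regulators, and the 3 genes of each other list with the smallest F test p. Comparisons with proline, those among the 3 low sources and a ribosomal RNA covariate were added after seeing the data.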

Additional observations from a re-analysis of the deposited data

How the results depend on the processing

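The F test counts, the counts called with leucine and with phenylalanine against asparagine and the counts lower than with proline under all 3 low sources stayed within 1.5 times of their values under every alternative run: quantile normalization, median centring, 2 other floors, no filter or a stricter one, no variance trend, limma array weights, a replicate block, 3 covariates (actin ratio, hybridisation signal, ribosomal RNA signal), a 2-fold minimum, only the 2 groups compared, and leaving out each array in turn. The 1 DAN or TIR probe set higher with proline than with asparagine (TIR4) became 2 with a floor at the 25th percentile or with only the 2 groups fitted, 3 with array weights (4 called, TIR2 being lower), and 0 with no filter, no trend, the actin ratio, the hybridisation signal (1 called, TIR2, lower), the ribosomal RNA signal or a 2-fold minimum (0 to 1 without single arrays); DAN1 then passed with that floor (adjusted p = 0.0072), with array weights (0.027) and with 2 groups (0.031). The 21 PAU probe sets higher with proline became 13 with the hybridisation signal as a covariate, and the 18 lower with methionine became 11, with 1 higher, with the actin ratio. With a 2-fold minimum the lower calls with methionine were 2 of 6 DAN and TIR and 9 of 21 PAU probe sets, where the criterion itself removes smaller changes. Between the 3 low sources, the 2 DAN and TIR probe sets became 4 with quantile normalization or median centring, 1 with no filter, no trend or the ribosomal RNA signal, and 0 with the actin ratio or a 2-fold minimum (0 to 3 without single arrays); the 2 PAU probe sets became 4 under both scalings, 8 with array weights, 1 with no filter and 0 with a 2-fold minimum (1 to 4 without single arrays). Apart from the median centring counts above, the shares of all probe sets called under these settings or with the replicate block are not given. The changes cannot therefore be called particular to the family. The causes were not tested. Whether replicate numbers pair the arrays was not settled. Deviations of same-numbered arrays correlated at -0.25 to 0.40 (median 0.02, 30 pairs). Those of differently numbered arrays correlated at -0.42 to 0.42 (median 0, 60 pairs). Correlations were over 0.1 in 11 of the 30 and 13 of the 60 pairs, and 8 of 15 arrays correlated best with their own number. With the replicate number as a block, against asparagine 20 PAU probe sets were higher with proline, and 19, 18 and 17 lower with leucine, phenylalanine and methionine; for the DAN and TIR probe sets the counts were 1, 4, 3 and 4. Single differences from asparagine were followed for the DAN and TIR probe sets and the 8 PAU probe sets with the largest differences. That choice favoured calls that hold. Of these 56 differences (44 called), none reversed as a call. Alternatives other than left-out arrays gave 745 values on the same side of the threshold. Another 22 lost it, 13 gained it and 4 uncalled ones changed sign. Left-out arrays gave 312, 19, 1 and 4 in the same order. For 76 such differences of other listed genes the values were 938, 51, 22 and 33, and 407, 21, 3 and 25 with left-out arrays. CYC7, ANB1 and SED1 with phenylalanine lost their calls under median centring (adjusted p = 0.37, 0.28 and 0.48).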
